A study of Homo sapiens with 9 samples.

Results

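Ribosome biogenesis and nucleolar genes were followed in MDA-MB-231, a widely used human line of triple-negative breast cancer, after its cells had survived a ferroptosis inducer. The set held 39 genes chosen by name as nucleolar genes known to respond to the transcription factor MYC, of the 58735 genes in the count tables, and all 39 were among the 16188 genes that passed the filter on low counts. The rule names genes and sets no threshold on a measured value. Of these, 4 serve RNA polymerase I, 3 are box C/D snoRNP proteins, 9 process the small subunit, 12 assemble the large subunit and 6 are nucleolar regulators and chaperones. The other 5 were grouped with box H/ACA snoRNPs: DKC1, NHP2, NOP10, GAR1 and the snoRNP chaperone NOLC1.

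RNA was sequenced from 3 groups of 3 libraries each: vehicle (cells treated with DMSO), erastin-R (cells surviving rising concentrations of erastin, an inhibitor of the cystine transporter) and RSL3-R (cells surviving rising concentrations of RSL3, an inhibitor of GPX4). All libraries came from 1 cell line, the labels give no dose or time for the sequenced cells, and survivors of a drug are a selected population. The survivors are called the resistant groups below, after the authors' names for them. The labels do not say that resistance of the sequenced cells was measured. The labels do not say whether libraries of a group came from separate cultures, so the p values below measure only the spread between these libraries, which may be technical. In bulk RNA, fewer cells expressing a gene and less of its RNA per cell cannot be told apart.

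Ribosomes are built mainly in the nucleolus. RNA polymerase I transcribes a long precursor rRNA, snoRNPs guide its methylation (box C/D) and pseudouridylation (box H/ACA), and a large cast of assembly factors folds, cuts and packs it with ribosomal proteins into the small and large subunits. MYC is a transcription factor known for driving many of these genes, and cancer cells are known for enlarged, active nucleoli.

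The libraries held 15405102 to 17273464 counts each. Of the markers expected to be high in this line, VIM lay between 1274 and 1581 CPM (counts scaled to a common library size after TMM normalization), CD44 between 231 and 321 CPM and EGFR between 369 and 684 CPM. By edgeR, CD44 was lower than in vehicle in RSL3-R (log2 fold change -0.43, adjusted p = 3.42e-05) and in erastin-R (-0.15, adjusted p = 0.0343). EGFR was higher in RSL3-R (0.78, adjusted p = 5.07e-07) and in erastin-R (0.26, adjusted p = 0.0045). Of those expected to be low or absent, ESR1 and PGR did not exceed 0.75 CPM, EPCAM did not exceed 2.86 CPM, and ERBB2 was present at 59.8 to 96.9 CPM. By the same test ERBB2 was lower than in vehicle in erastin-R (-0.19, adjusted p = 0.0352) and in RSL3-R (-0.59, adjusted p = 1.21e-05). CDH1 had 0.382 to 1.67 CPM in vehicle and erastin-R and 3.214 to 3.804 CPM in RSL3-R, where it was higher than in vehicle (1.58, adjusted p = 0.00130). The summed level of 5 leukocyte, endothelial and erythroid markers was 10.2 to 11.2 CPM in vehicle, 1.85 to 3.04 CPM in erastin-R and 13.2 to 15.7 CPM in RSL3-R, most of it PECAM1, with HBB at 0 in all 9 libraries. By edgeR, PECAM1 was lower than in vehicle in erastin-R (-2.47, adjusted p = 8.28e-08) and higher in RSL3-R (0.36, adjusted p = 0.0469). PTPRC, at 1.49 CPM or less, was higher in RSL3-R (1.67, adjusted p = 0.0082). Messenger RNAs of the mitochondrial genome took 6.97 to 7.75% of counts in vehicle, 5.02 to 6.88% in erastin-R and 8.06 to 8.65% in RSL3-R. The part of the marker and mitochondrial differences in the results was not tested.

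In sum the set was lower in both resistant groups than in vehicle, by small steps spread over many genes. Summed over the 39 genes, the level was 5018, 5023 and 5054 CPM in the vehicle libraries, 4704, 3867 and 3924 CPM in erastin-R and 4136, 4164 and 4247 CPM in RSL3-R. Every resistant library was below every vehicle library, and erastin-R replicate 1 lay well above the other two erastin-R libraries. NPM1 and NCL alone held 30.1% of the sum in vehicle; without them the level was 3497 to 3545 CPM in vehicle, 2870 to 3292 CPM in erastin-R and 2816 to 2865 CPM in RSL3-R. A gene was called changed at an adjusted p under 0.05 in edgeR's quasi-likelihood test over all 16188 genes.

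Compared with vehicle, 18 of the 39 genes were lower in erastin-R cells and 5 were higher (POLR1B, POLR1C, RRP12, WDR12 and DDX21), while 16 did not pass the test. Over all genes tested, 26.8% were called lower and 27.1% higher, so the set held more lower calls and fewer higher calls than the background; the share called in either direction, 54.0% of all genes, was close to the 59.0% of the set. The median log2 fold change of the 39 genes was -0.20, against -0.004 for all genes tested. For RSL3-R against vehicle the set held 23 lower genes, 0 higher genes and 16 that did not pass, with 24.9% of all genes called lower, 23.8% higher and 48.7% in either direction. For the count of 0 higher genes, DESeq2 also gave 0 (23.58% of all genes) and an unadjusted p under 0.05 gave 1 (27.05% of all genes). The median log2 fold change was -0.30 for the set and 0.005 for all genes. Over the 12970 protein-coding genes tested, 29.07% were lower and 29.15% higher in erastin-R, with a median of -0.007. In RSL3-R 29.14% of them were lower and 24.36% higher, with a median of -0.03. Both comparisons used the same 3 vehicle libraries.

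The changes were small. UBTF was the only one of the 39 genes to change at least 2-fold against vehicle, and it did so in each comparison, whereas 13.4% of all genes in erastin-R and 10.1% in RSL3-R were called at that size in either direction, 6.66% and 4.08% on the lower side. Ranges of the 3 libraries did not overlap with vehicle, on the low side, for 17 genes in erastin-R (29.1% of all genes) and for 27 genes in RSL3-R (31.4% of all genes). On the high side this held for 6 genes in erastin-R (28.7% of all genes) and 3 genes in RSL3-R (30.4% of all genes).

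**Figure D1:**
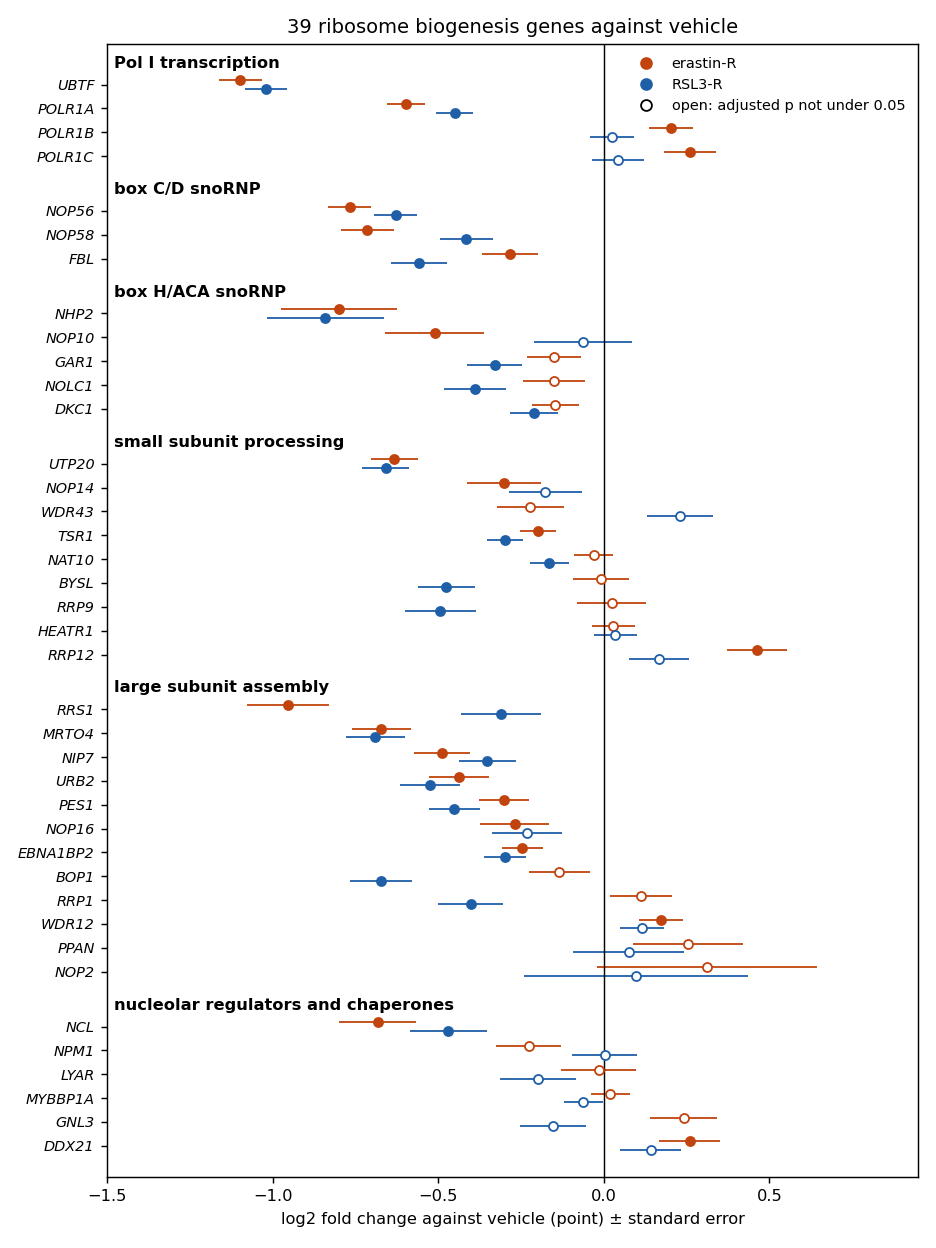
Log2 fold change against vehicle (x axis) for each of the 39 genes (y axis, grouped by role), with erastin-R in orange and RSL3-R in blue; bars are ± 1 standard error from edgeR and open points did not pass an adjusted p of 0.05. Most points lie left of 0, UBTF lies farthest left at -1.10 and -1.02, and RRP12 in erastin-R lies farthest right among the filled points at 0.46.

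One erastin-R library stood apart. Replicate 1 was the highest of the 3 erastin-R libraries for 27 of the 39 genes, or 69.2%, against 41.0% of all genes tested. Its median log2 ratio to the vehicle mean over the 39 genes was -0.08, against -0.27 in each of the other erastin-R libraries and -0.31 to -0.26 in RSL3-R. It also had the most mitochondrial mRNA of its group, 6.88% of counts against 5.02% and 5.33%. Without this library 24 of the 39 genes were lower and 5 higher in erastin-R than in vehicle (30.3% and 29.6% of the genes then tested), with a median of -0.24. The RSL3-R comparison, which shares the estimate of the spread, then had 27 lower and 3 higher genes (29.2% and 27.4% of the genes then tested), the higher ones being DDX21, RRP12 and WDR43.

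**Figure D2:**
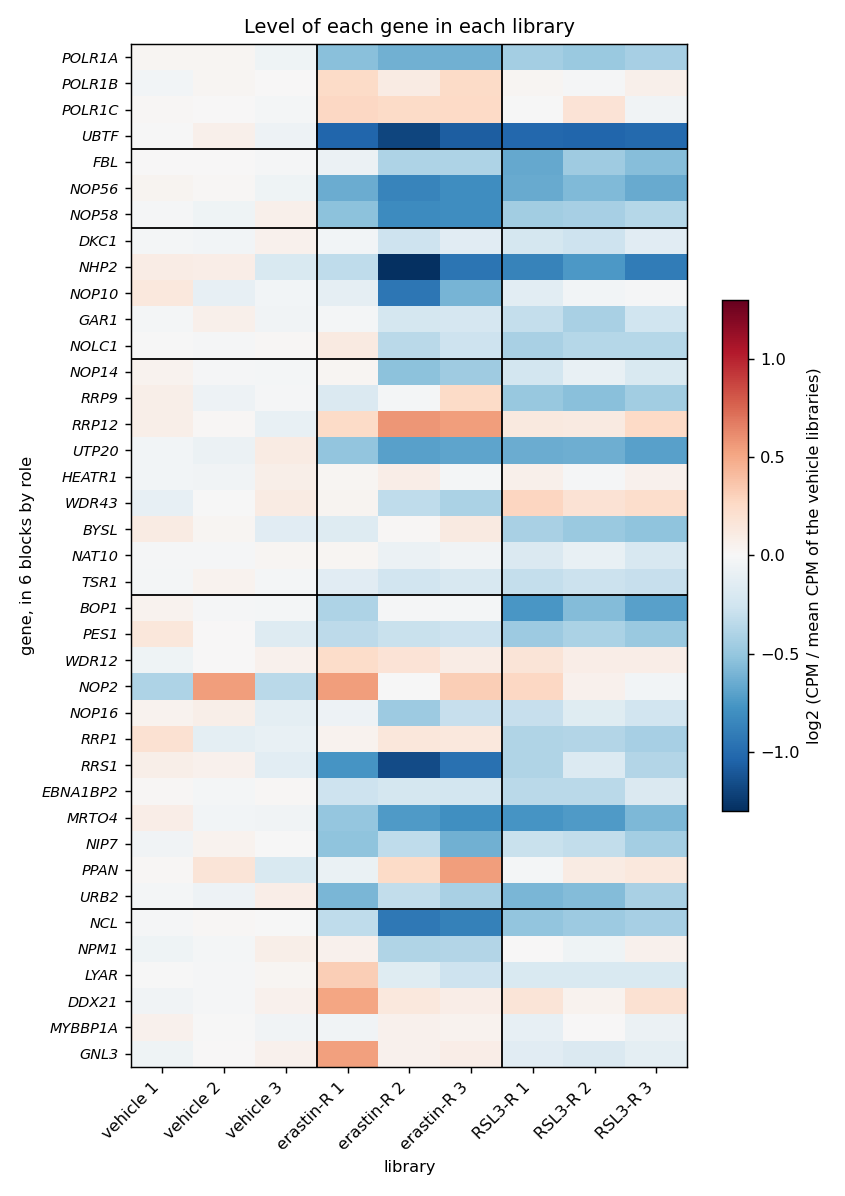
Level of each of the 39 genes (rows, in 6 blocks by role) in each of the 9 libraries (columns) as the log2 ratio of its CPM to the mean CPM of the 3 vehicle libraries; blue is below and red above that mean. Blue runs through UBTF, NOP56, NOP58, NHP2, MRTO4 and NCL in the 6 resistant libraries, and erastin-R replicate 1 is paler or redder than its 2 neighbours in the bottom block.

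Of the 4 RNA polymerase I genes, UBTF and POLR1A were lower in each resistant group, and POLR1B and POLR1C were higher in erastin-R. UBTF, which binds the rRNA gene and keeps it open for transcription, is encoded on chromosome 17 (44205033 to 44221626 of GRCh38, minus strand; ENSG00000108312). Its level was 155.4, 163.5 and 149.0 CPM in vehicle, 76.5, 68.0 and 74.0 CPM in erastin-R and 77.0, 76.3 and 77.3 CPM in RSL3-R, so the 6 resistant libraries sat at about the same level, far below vehicle. UBTF fell by 1.10 on the log2 scale in erastin-R (SE 0.06, adjusted p = 1.36e-08) and by 1.02 in RSL3-R (SE 0.06, adjusted p = 2.16e-08). RSL3-R minus erastin-R was 0.08 (95% interval -0.05 to 0.20). The intervals here and below are narrower than a true 95% interval, for the reason given with the processing.

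POLR1A, the largest catalytic subunit, was also lower, with 154 to 163 CPM in vehicle, 104 to 110 CPM in erastin-R and 115 to 119 CPM in RSL3-R. Its fitted log2 change was -0.60 in erastin-R (adjusted p = 1.14e-06) and -0.45 in RSL3-R (adjusted p = 1.78e-05). POLR1B and POLR1C, a catalytic partner of POLR1A and a subunit shared with RNA polymerase III, did not fall with it. POLR1C had 30.9, 30.6 and 30.0 CPM in vehicle, 36.8, 36.2 and 36.5 CPM in erastin-R and 30.4, 34.4 and 29.5 CPM in RSL3-R, so that all 3 erastin-R libraries and RSL3-R replicate 2 lay above vehicle. In erastin-R, POLR1C was higher by 0.26 (SE 0.08, adjusted p = 0.0123) and POLR1B by 0.20 (SE 0.07, adjusted p = 0.0184), a call of POLR1B that was lost without vehicle replicate 1 or without erastin-R replicate 3 (adjusted p = 0.0593 and 0.0718). In RSL3-R the differences were 0.04 for POLR1C (95% interval -0.11 to 0.20) and 0.03 for POLR1B (-0.10 to 0.15).

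All 3 box C/D snoRNP proteins, which carry the methylation of rRNA, were lower in each resistant group, where 26.8% (erastin-R) and 24.9% (RSL3-R) of all genes were. NOP56, a scaffold protein of the particle (chromosome 20, 2652145 to 2658393), had 335.2, 330.4 and 314.0 CPM in vehicle, 209.2, 179.8 and 186.1 CPM in erastin-R and 206.8, 220.1 and 206.8 CPM in RSL3-R. Its fitted log2 change was -0.77 in erastin-R (SE 0.07, adjusted p = 3.88e-07) and -0.63 in RSL3-R (SE 0.07, adjusted p = 2.93e-06). NOP58, its partner scaffold, fell from 95.8 ± 4.17 CPM (SD, n = 3) to 58.4 ± 6.88 CPM in erastin-R and 71.8 ± 2.10 CPM in RSL3-R (adjusted p = 5.29e-06 and 6.41e-04, edgeR).

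FBL, the methyltransferase itself, changed less in erastin-R than its scaffolds: 162.0, 162.2 and 159.1 CPM in vehicle, 152.5, 122.0 and 122.2 CPM in erastin-R and 101.7, 117.1 and 109.5 CPM in RSL3-R. No resistant library reached the vehicle range. The fitted log2 change of FBL was -0.28 in erastin-R (adjusted p = 0.0107; without erastin-R replicate 3, -0.23 and 0.0503) and -0.56 in RSL3-R (adjusted p = 9.32e-05).

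Among the genes grouped with box H/ACA snoRNPs, 2 of 5 were lower in erastin-R and 4 of 5 in RSL3-R, where 26.8% and 24.9% of all genes were. NHP2, a core protein of the pseudouridylation particle, had 37.8, 37.7 and 30.9 CPM in vehicle, 28.1, 14.4 and 18.4 CPM in erastin-R and 19.4, 21.1 and 18.9 CPM in RSL3-R. No resistant library reached the vehicle range, and the erastin-R libraries were spread widely. Its fitted log2 change was -0.80 in erastin-R (SE 0.18, adjusted p = 0.00160) and -0.84 in RSL3-R (SE 0.18, adjusted p = 0.00133).

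NOP10, a small core protein of the particle, had 51.4, 43.7 and 45.7 CPM in vehicle, 43.4, 24.4 and 30.8 CPM in erastin-R and 42.6, 45.7 and 46.4 CPM in RSL3-R. It was lower in erastin-R by 0.51 (SE 0.15, adjusted p = 0.0105), with replicate 1 just under the vehicle range and the others far under it, and in RSL3-R replicate 1 was also just under that range and the other two lay within it (log2 fold change -0.06, 95% interval -0.35 to 0.23). The pseudouridine synthase DKC1, GAR1 and the snoRNP chaperone NOLC1 passed the test in RSL3-R, with log2 fold changes of -0.21, -0.33 and -0.39 and adjusted p values of 0.0252, 0.00480 and 0.00364. The DKC1 call was lost without vehicle replicate 3 or any 1 RSL3-R library, at adjusted p values from 0.0648 to 0.139. In erastin-R these 3 had log2 fold changes of -0.15 each and did not pass (adjusted p = 0.0985, 0.138 and 0.194), and each passed once erastin-R replicate 1 was left out, at -0.21 for DKC1, -0.22 for GAR1 and -0.31 for NOLC1.

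Of the 9 small subunit processing genes, 3 were lower and 1 higher in erastin-R, and 5 were lower in RSL3-R (33.3%, 11.1% and 55.6%, against 26.8%, 27.1% and 24.9% of all genes). UTP20, a scaffold of the small subunit processome, fell from 138 ± 9.58 CPM (SD, n = 3) in vehicle to 89.1 ± 6.60 CPM in erastin-R and 87.5 ± 2.51 CPM in RSL3-R, with log2 fold changes of -0.63 and -0.66 (adjusted p = 5.35e-06 and 4.35e-06). TSR1, which acts late in maturation, was lower by smaller steps of -0.20 and -0.30 (adjusted p = 0.00701 and 4.76e-04). RRP12, which helps export both subunits, went the other way in erastin-R.

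RRP12 had 46.3, 44.5 and 41.0 CPM in vehicle, 52.4, 65.3 and 63.8 CPM in erastin-R and 48.0, 47.5 and 52.5 CPM in RSL3-R. Its fitted log2 change was 0.46 in erastin-R (SE 0.09, adjusted p = 6.43e-04) and 0.17 in RSL3-R (95% interval -0.01 to 0.34, adjusted p = 0.144). RRP9, which binds the U3 snoRNA, had 32.1, 29.2 and 30.1 CPM in vehicle, 26.7, 30.0 and 36.3 CPM in erastin-R and 21.7, 20.9 and 22.3 CPM in RSL3-R, so it was lower in the RSL3-R libraries (log2 fold change -0.49, adjusted p = 0.00159) while the erastin-R libraries straddled vehicle (0.02, 95% interval -0.18 to 0.23).

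BYSL, a maturation factor of the small subunit, showed values like those of RRP9: 48.6 ± 1.74 CPM in RSL3-R (SD, n = 3) against 67.5 ± 5.81 CPM in vehicle and 67.1 ± 6.58 CPM in erastin-R, with log2 fold changes of -0.48 (adjusted p = 4.06e-04) and -0.01 (95% interval -0.18 to 0.16). NAT10, which acetylates rRNA, was lower by 0.16 in RSL3-R (adjusted p = 0.0332), a call lost without any 1 vehicle library or without RSL3-R replicate 1 or 3 (adjusted p from 0.0689 to 0.265), and stood at -0.03 in erastin-R. Its RSL3-R call was also lost with no filter, DESeq2, quantile normalization or a replicate block. NOP14 was lower in erastin-R at -0.30 (adjusted p = 0.0350), lost without any 1 vehicle library or without erastin-R replicate 2 or 3 (adjusted p from 0.0634 to 0.149), and was at -0.18 in RSL3-R (adjusted p = 0.211; without erastin-R replicate 1, adjusted p = 0.00134).

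Neither HEATR1 nor WDR43, both early processome factors, passed the test against vehicle. HEATR1 lay between 72.4 and 79.2 CPM over all 9 libraries, with log2 fold changes of 0.03 in each comparison (95% intervals -0.10 to 0.15 and -0.09 to 0.16). WDR43 had 61.9, 66.7 and 72.0 CPM in vehicle, 68.5, 53.1 and 50.4 CPM in erastin-R and 80.9, 76.0 and 78.5 CPM in RSL3-R, with the RSL3-R libraries above all others. Its log2 fold changes were -0.22 (adjusted p = 0.0787) and 0.23 (adjusted p = 0.0718); without erastin-R replicate 1 they were -0.37 (adjusted p = 3.07e-05) and 0.23 (adjusted p = 0.00154).

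Large subunit assembly, the role with the most genes, had 7 of 12 lower in erastin-R (58.3%, against 26.8% of all genes) and 8 of 12 in RSL3-R (66.7%, against 24.9%), with 1 higher gene in erastin-R. RRS1, which helps bring the 5S RNP into the young subunit, had 19.1, 18.8 and 16.4 CPM in vehicle, 10.7, 8.08 and 9.24 CPM in erastin-R and 13.8, 16.0 and 13.9 CPM in RSL3-R. The groups were ordered with no overlap, vehicle highest and erastin-R lowest. RRS1 fell by 0.95 on the log2 scale in erastin-R (SE 0.12, adjusted p = 2.17e-05) and by 0.31 in RSL3-R (SE 0.12, adjusted p = 0.0449), a call lost without vehicle replicate 1 or 2 or without RSL3-R replicate 1 or 3 (adjusted p from 0.124 to 0.197). The RSL3-R call was also lost with no filter, DESeq2, total-count scaling, quantile normalization or a replicate block.

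MRTO4, which holds the place of the stalk protein on the young subunit, had 58.1, 53.3 and 52.9 CPM in vehicle, 38.7, 32.8 and 31.5 CPM in erastin-R and 32.2, 32.9 and 36.6 CPM in RSL3-R. The 6 resistant libraries shared a range well under vehicle, with log2 fold changes of -0.67 (adjusted p = 2.53e-05) and -0.69 (adjusted p = 2.35e-05). NIP7, URB2 and EBNA1BP2 were also lower in each resistant group, at -0.49, -0.44 and -0.25 in erastin-R and -0.35, -0.53 and -0.30 in RSL3-R, with adjusted p values of at most 0.00429.

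PES1, BOP1 and WDR12 form the PeBoW complex, which is needed to process the large subunit rRNA, and their messages did not move together. BOP1 had 122.6, 117.7 and 117.1 CPM in vehicle, 90.3, 117.8 and 117.3 CPM in erastin-R and 70.5, 80.7 and 72.9 CPM in RSL3-R; only the RSL3-R libraries lay apart from vehicle as a group, and erastin-R replicate 1 was the low one of its group. BOP1 was lower in RSL3-R by 0.67 (SE 0.09, adjusted p = 4.22e-05), and its erastin-R value was -0.14 (95% interval -0.31 to 0.04). PES1 was lower in erastin-R at -0.30 (adjusted p = 0.00434) and in RSL3-R at -0.45 (adjusted p = 2.58e-04).

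WDR12 was called higher in erastin-R at 0.17 (adjusted p = 0.0406), but the call was lost when any 1 of 7 libraries was left out, all but vehicle replicate 3 and erastin-R replicate 3 (adjusted p from 0.0532 to 0.153), and it stood at 0.11 in RSL3-R (95% interval -0.02 to 0.24). The erastin-R call was also lost with no filter, DESeq2, quantile normalization, a model of the 2 groups compared or a replicate block. RRP1 was lower in RSL3-R, with 30.4, 24.4 and 24.9 CPM in vehicle, 27.5, 29.5 and 29.2 CPM in erastin-R and 20.3, 20.4 and 19.6 CPM in RSL3-R. Its fitted log2 change was -0.40 in RSL3-R (adjusted p = 0.00347) and 0.11 in erastin-R (95% interval -0.07 to 0.30). NOP16 was called lower in erastin-R at -0.27 (adjusted p = 0.0430; lost without any 1 of 7 libraries, all but vehicle replicate 3 and erastin-R replicate 1, at up to 0.185) and was at -0.23 in RSL3-R (adjusted p = 0.0818; without erastin-R replicate 1, 0.0154).

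PPAN and the rRNA methyltransferase NOP2 did not pass the test in either resistant group. PPAN lay at 5.61 to 9.36 CPM and NOP2 at 0.775 to 1.49 CPM over the 9 libraries, the lowest levels of the set, with log2 fold changes of 0.25 (SE 0.17) and 0.31 (SE 0.33) in erastin-R. For these genes the annotation bears on the count: 59.8% of the exon bases of PPAN and 54.4% of those of NOP2 also belong to other genes on the same strand. In each case the gene with the largest overlap was a readthrough gene, which had 0 counts. The part of this overlap in their counts was not tested. Leaving out erastin-R replicate 1 brought PPAN past the test in erastin-R at 0.40 (adjusted p = 0.0294).

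The nucleolar regulators included the most abundant messages of the set and had 1 of 6 genes lower in each resistant group (16.7%, against 26.8% of all genes in erastin-R and 24.9% in RSL3-R). NCL, nucleolin, which binds precursor rRNA, had 644.5, 658.4 and 648.3 CPM in vehicle, 517.7, 342.0 and 355.0 CPM in erastin-R and 455.9, 469.2 and 483.9 CPM in RSL3-R. All resistant libraries were lower, erastin-R replicate 1 the least so. The fitted log2 change of NCL was -0.68 in erastin-R (SE 0.12, adjusted p = 2.22e-04) and -0.47 in RSL3-R (SE 0.12, adjusted p = 0.00418).

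NPM1, nucleophosmin, a histone and ribosome chaperone, had 828.6, 849.3 and 908.2 CPM in vehicle, 894.4, 655.3 and 659.8 CPM in erastin-R and 863.4, 830.4 and 897.4 CPM in RSL3-R. The RSL3-R libraries lay within the vehicle range (log2 fold change 0.00, 95% interval -0.19 to 0.19). In erastin-R its value was -0.23 (adjusted p = 0.0644), and without erastin-R replicate 1 it was -0.39 (adjusted p = 8.57e-09). With all libraries, NPM1 was also called lower there with no filter and with DESeq2. The annotation names 45 pseudogenes of NPM1, which together had 2579 counts over the 9 libraries against 120654 for NPM1, and reads that match both cannot be placed uniquely.

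DDX21, an RNA helicase that binds rRNA genes and snoRNAs, was higher in erastin-R, with 233.0, 237.5 and 250.3 CPM in vehicle, 341.9, 265.1 and 255.3 CPM in erastin-R and 270.1, 248.8 and 275.9 CPM in RSL3-R. Replicate 1 was the highest of the erastin-R libraries. Its fitted log2 change was 0.26 in erastin-R (SE 0.09, adjusted p = 0.0294; lost without vehicle replicate 1 or 2, at 0.0946 or 0.0846) and 0.14 in RSL3-R (adjusted p = 0.228; without erastin-R replicate 1, 0.00864). GNL3, the nucleolar GTPase nucleostemin, had 158.1, 164.7 and 170.8 CPM in vehicle, 237.5, 171.0 and 174.6 CPM in erastin-R and 148.7, 144.8 and 150.2 CPM in RSL3-R, again with erastin-R replicate 1 far above the rest.

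GNL3 did not pass in erastin-R at 0.24 (adjusted p = 0.0560) and passed without erastin-R replicate 2 or 3 (adjusted p = 0.0232 at the most). With all libraries it also passed there as higher with no filter, DESeq2 or total-count scaling. In RSL3-R, GNL3 was at -0.15 (adjusted p = 0.227; without erastin-R replicate 1, 0.00316). MYBBP1A, a regulator of rRNA transcription, was at 0.02 and -0.06, with 144 to 161 CPM over all libraries. LYAR had 78.1, 77.1 and 79.4 CPM in vehicle, 97.3, 70.0 and 64.8 CPM in erastin-R and 68.2, 68.2 and 68.1 CPM in RSL3-R, and its value in erastin-R, -0.02, turned to -0.22 without replicate 1 (adjusted p = 0.00266), a library whose level lay above vehicle while the other two lay below. In RSL3-R, LYAR stood at -0.20 (adjusted p = 0.168; without erastin-R replicate 1, 0.00189).

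**Figure D3:**
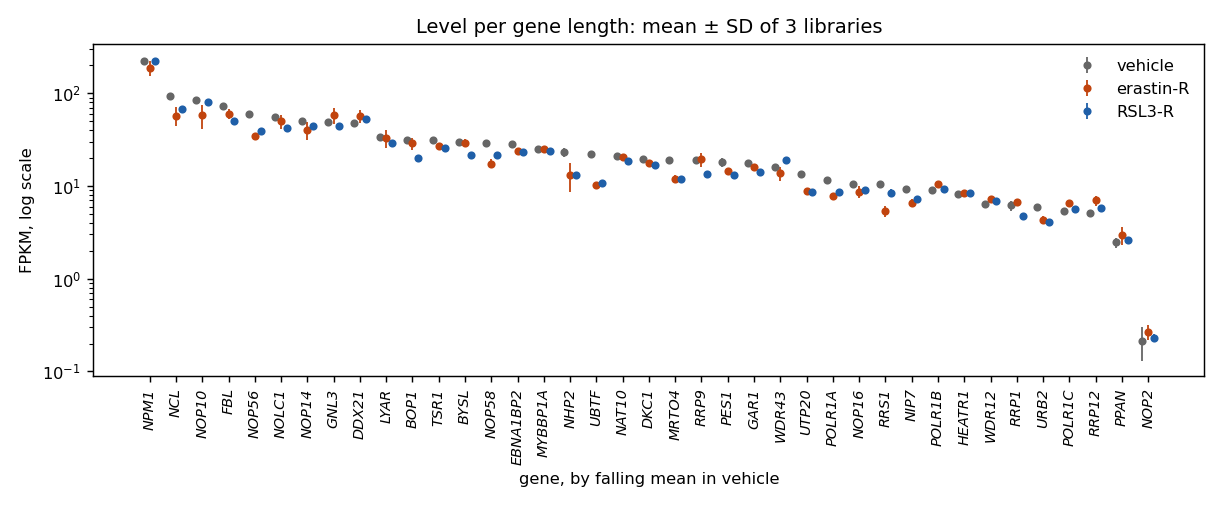
Mean FPKM, a level per gene length, on a log axis (y axis) for each of the 39 genes (x axis, in falling order of the vehicle mean), in vehicle (grey), erastin-R (orange) and RSL3-R (blue); bars are ± 1 SD of 3 libraries. Levels run from 223 FPKM for NPM1 to 0.215 FPKM for NOP2 in vehicle.

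Per gene length, the levels spanned a wide range. In vehicle the median over the 39 genes was 19.4 FPKM, and 29 of 39 lay above 10 FPKM. NPM1 led at 223 ± 11.1 FPKM (SD, n = 3), followed by NCL at 92.9 ± 1.003 FPKM, NOP10 at 83.8 ± 7.15 FPKM, FBL at 73.4 ± 0.651 FPKM and NOP56 at 59.9 ± 1.92 FPKM. The gap between NCL and NOP10 was larger than the SD of either, whereas that between NOP14 at 49.9 ± 1.39 FPKM and GNL3 at 49.1 ± 1.98 FPKM was smaller. In erastin-R, NOP10 at 58.5 ± 16.98 FPKM, NCL at 57.6 ± 13.7 FPKM, FBL at 60.0 ± 7.71 FPKM, GNL3 at 57.7 ± 10.9 FPKM and DDX21 at 56.4 ± 9.07 FPKM did not differ beyond their spread. NOP2 was the lowest in every group, at 0.215 ± 0.0844 FPKM in vehicle, below PPAN at 2.47 ± 0.305 FPKM.

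RSL3-R cells were then compared with erastin-R cells directly, a comparison that reuses the libraries above. The set had 5 genes higher in RSL3-R (POLR1A, NOP58, NOP10, WDR43 and RRS1) and 10 lower (POLR1B, POLR1C, FBL, NOLC1, RRP9, RRP12, BYSL, BOP1, RRP1 and GNL3), and the remaining 24 did not pass. Over all genes tested, 22.3% were higher, 26.9% lower and 49.2% called in either direction, against 12.8%, 25.6% and 38.5% of the set. Over the protein-coding genes tested these shares were 22.4%, 31.1% and 53.5%. The set's higher share was under both backgrounds. Its lower share was close to that of all genes and under that of protein-coding genes. The median was -0.08, against -0.02 for all genes and -0.05 for protein-coding genes. Ranges did not overlap for 4 higher genes (25.6% of all genes) and 13 lower genes (29.5% of all genes). None of the 39 differed by 2-fold, while 10.3% of all genes did, 3.48% on the lower side.

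The largest differences between the resistant groups were in RRS1, 0.64 higher in RSL3-R (SE 0.13, adjusted p = 8.24e-04), WDR43, 0.45 higher (SE 0.10, adjusted p = 0.00208), and NOP10, 0.45 higher (SE 0.15, adjusted p = 0.0239; lost without replicate 2 or 3 of either group, adjusted p up to 0.0965). On the lower side, BOP1 differed by -0.54 (SE 0.09, adjusted p = 3.10e-04), RRP9 by -0.52 (SE 0.11, adjusted p = 0.00115) and RRP1 by -0.51 (SE 0.10, adjusted p = 5.75e-04). BYSL followed at -0.47 (adjusted p = 5.09e-04) and GNL3 at -0.39 (adjusted p = 0.00504). Genes of large subunit assembly thus stood at both ends.

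Several of these calls were fragile. The differences of POLR1A (0.15), POLR1B (-0.18), POLR1C (-0.22) and NOLC1 (-0.24) had adjusted p values between 0.0336 and 0.0491 and were lost without most single libraries. POLR1A held only without erastin-R replicate 1 (otherwise up to 0.138), POLR1B without vehicle replicate 3 or erastin-R replicate 1 or 2 (up to 0.176), POLR1C without vehicle replicate 3, erastin-R replicate 1 or RSL3-R replicate 2 (up to 0.250) and NOLC1 without erastin-R replicate 2 or 3 (up to 0.202). RRP12 (-0.29, adjusted p = 0.0143) was lost without erastin-R replicate 2 or 3 or RSL3-R replicate 1 or 2 (up to 0.0911) and FBL (-0.27, adjusted p = 0.0156) without RSL3-R replicate 1 or 3 (0.133 and 0.0789). Quantile normalization also lost the RRP12 and FBL calls, and a model of the 2 groups compared lost that of FBL. Without erastin-R replicate 1 the count rose to 9 higher and stayed at 10 lower, where 27.1% and 30.0% of the genes then tested were called. NCL (0.43, adjusted p = 8.84e-10), NPM1 (0.39, adjusted p = 1.03e-08), NOP14 (0.32, adjusted p = 6.72e-06) and NOP56 (0.21, adjusted p = 5.87e-04) were then higher in RSL3-R. PES1 was then lower (-0.17, adjusted p = 0.0428) and the NOLC1 difference shrank to -0.08.

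MYC, the factor by which the set was chosen, was itself higher in each resistant group. MYC (ENSG00000136997) had 196.6, 191.0 and 183.5 CPM in vehicle, 520.3, 575.2 and 584.4 CPM in erastin-R and 282.7, 300.4 and 304.3 CPM in RSL3-R. The groups did not overlap, and erastin-R was the highest. Its fitted log2 change was 1.56 in erastin-R (SE 0.06, adjusted p = 5.46e-10) and 0.64 in RSL3-R (SE 0.06, adjusted p = 1.53e-06), and it was 0.92 lower in RSL3-R than in erastin-R (log2 difference -0.92, SE 0.06, adjusted p = 6.65e-08). The level of its protein was not measured in these libraries.

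**Figure D4:**
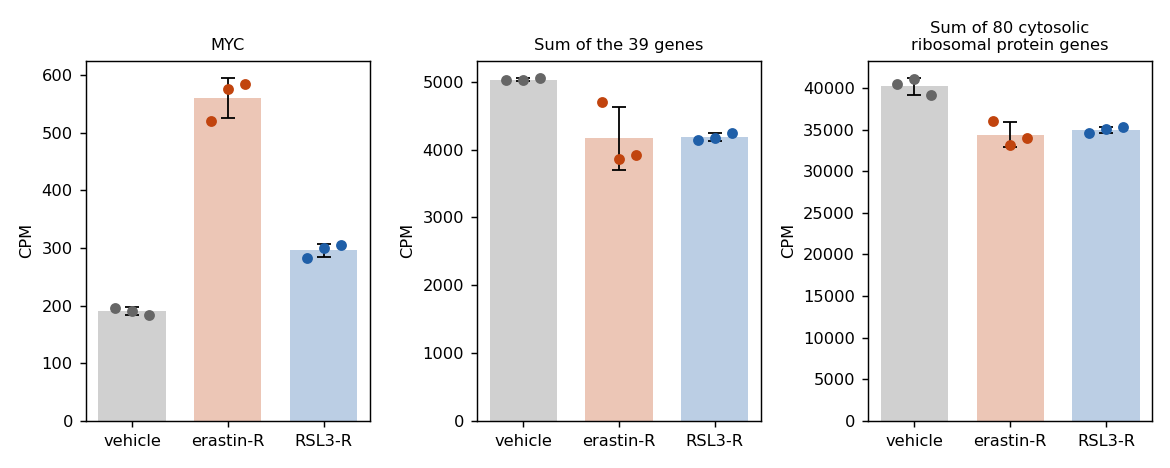
CPM (y axes from 0) of MYC, summed over the 39 genes and summed over 80 cytosolic ribosomal protein genes, in each library (points); bars are the mean of 3 libraries and error bars ± 1 SD. MYC is highest in erastin-R at 520 to 584 CPM, while the sum of the 39 genes is highest in vehicle at 5018 to 5054 CPM and the ribosomal protein sum is highest in vehicle at 39100 to 41040 CPM.

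MYC and its partner MAX bind the E-box CACGTG, which reads the same on both strands. RefSeq promoter windows on GRCh38.p14 were found for 33 of the 39 genes, and the 250 bases before each start were searched. These genes had 42 windows, since some have several starts. A motif counted for a gene therefore need not lie in the window shown for it below. The E-box occurred in 6 of the 33 genes (18.2%), against 7.73% of all 27305 genes with a window: DDX21, EBNA1BP2, LYAR, NAT10, NOP10 and UTP20. The set was chosen for its response to MYC, so its share of this motif is not independent of the choice. The background here and for the motifs below includes genes under the filter on low counts, and was not matched for base composition. The windows of the 5 that were called in at least 1 comparison with vehicle, chosen after their values were seen, are shown 5′ to 3′ on the gene's strand up to the base before the start, with the E-box in capitals.

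UTP20, chr12:101279855-101280104 (plus strand): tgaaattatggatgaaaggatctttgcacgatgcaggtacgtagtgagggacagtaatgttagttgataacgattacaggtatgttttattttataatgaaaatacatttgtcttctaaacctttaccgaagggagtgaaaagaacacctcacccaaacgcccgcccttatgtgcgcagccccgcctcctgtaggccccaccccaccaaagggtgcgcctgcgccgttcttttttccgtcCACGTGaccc
EBNA1BP2, chr1:43172571-43172820 (minus strand): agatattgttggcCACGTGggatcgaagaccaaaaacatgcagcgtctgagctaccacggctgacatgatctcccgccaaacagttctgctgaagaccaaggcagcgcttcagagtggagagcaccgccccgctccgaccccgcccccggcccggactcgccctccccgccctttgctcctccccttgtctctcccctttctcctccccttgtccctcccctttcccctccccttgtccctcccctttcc
NOP10, chr15:34343137-34343386 (minus strand): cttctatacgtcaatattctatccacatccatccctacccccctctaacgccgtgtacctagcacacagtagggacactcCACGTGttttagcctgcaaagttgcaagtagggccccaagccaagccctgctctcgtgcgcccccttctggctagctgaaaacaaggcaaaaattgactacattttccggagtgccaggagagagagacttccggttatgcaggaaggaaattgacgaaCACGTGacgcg
NAT10, chr11:34105379-34105628 (plus strand): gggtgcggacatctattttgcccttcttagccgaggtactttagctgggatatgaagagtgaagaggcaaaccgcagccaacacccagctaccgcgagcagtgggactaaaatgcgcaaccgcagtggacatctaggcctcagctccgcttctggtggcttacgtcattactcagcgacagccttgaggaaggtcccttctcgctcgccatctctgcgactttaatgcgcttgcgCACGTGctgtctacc
DDX21, chr10:68956397-68956646 (plus strand): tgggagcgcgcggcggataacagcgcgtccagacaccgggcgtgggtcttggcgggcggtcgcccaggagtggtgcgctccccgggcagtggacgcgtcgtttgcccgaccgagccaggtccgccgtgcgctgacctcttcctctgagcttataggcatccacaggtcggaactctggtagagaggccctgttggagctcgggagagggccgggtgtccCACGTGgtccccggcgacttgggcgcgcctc

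These 5 genes did not move one way. UTP20 and EBNA1BP2 were lower in each resistant group, NOP10 was lower in erastin-R, NAT10 was lower in RSL3-R and DDX21 was higher in erastin-R, with the values given above. The first base of the E-box nearest to the start lay 10 bases before it in UTP20, 11 in NOP10, 15 in NAT10, 31 in DDX21 and 237 in EBNA1BP2. NOP10 held another copy 170 bases before its start. A match of letters is not a measured binding site.

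The ETS-type motif CCGGAAG or its reverse complement CTTCCGG occurred in 12 of the 33 genes (36.4%, against 10.2% of all genes with a window): DDX21, EBNA1BP2, FBL, GAR1, NIP7, NOP10, NOP16, POLR1B, POLR1C, PPAN, RRP9 and TSR1. The holders included genes called higher in erastin-R (DDX21, POLR1B and POLR1C) and genes called lower. CCAAT or ATTGG occurred in 11 of the 33 (33.3% against 37.0%). Neither motif overlaps the E-box in its letters.

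A property the choice did not use is that many of the 39 genes carry snoRNA genes inside them. GENCODE 29 places 28 snoRNA genes on the same strand within 9 of the 39 genes (23.1%), against 5 of 135 other ribosome biogenesis factors (3.70%) and 1.75% of the protein-coding genes tested. GNL3 holds 6, NOP56 5, NOP58 4, NCL 3, WDR43 3, DKC1 2, TSR1 2, PPAN 2 and POLR1C 1. In the introns of such hosts lie guide RNAs of the same rRNA modification machinery. The hosts did not stand apart in their own messages: the median of their log2 changes stood at -0.20 in erastin-R and -0.21 in RSL3-R, beside -0.19 and -0.32 for the other 30 genes. The snoRNAs themselves were not analysed here.

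Several of the 39 genes overlap a neighbour. The shares below are of exon bases also covered by any other gene on the strand given. The gene with the largest overlap is in brackets. On the opposite strand the share was 27.4% for NHP2 (RMND5B), 23.2% for HEATR1 (LGALS8), 20.8% for TSR1 (SRR) and 20.1% for NIP7 (COG8). It was 19.9% for NOP16 (ARL10), 18.8% for EBNA1BP2 (CFAP57), 18.2% for POLR1C (AL355802.2) and 17.1% for NOP14 (NOP14-AS1). Whether the counting used strand is not given in the sources used here, so reads of these overlapping genes may not be told apart. On the same strand the share was 11.4% for RRS1 (AC009879.2). Among the 28 genes that share under 10% on each strand, 11 were lower and 4 higher in erastin-R and 18 were lower in RSL3-R (39.3%, 14.3% and 64.3%, against 26.8%, 27.1% and 24.9% of all genes), with medians of -0.15 and -0.40.

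Other factors of the pathway were also called in both directions. Of 134 other ribosome biogenesis factors tested, out of 135 listed, 41 were lower and 27 higher in erastin-R (30.6% and 20.1%), and 50 were lower and 20 higher in RSL3-R (37.3% and 14.9%). Over all genes tested these shares were 26.8% and 27.1% in erastin-R and 24.9% and 23.8% in RSL3-R. Their medians were -0.05 and -0.11. The factors with the largest increases in erastin-R were ZNRD1, a small subunit of RNA polymerase I, at 1.07 (adjusted p = 6.24e-05), EXOSC7, a subunit of the rRNA-trimming exosome, at 0.85 (adjusted p = 5.88e-07), and TAF1D, of the polymerase I promoter factor SL1, at 0.76 (adjusted p = 3.46e-05). The largest decreases there were those of RRP36 at -0.96 (adjusted p = 1.50e-07), UTP14A at -0.92 (adjusted p = 2.18e-04) and IMP3 at -0.78 (adjusted p = 0.00117), all of the small subunit.

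In RSL3-R the largest increases were those of RSL24D1 at 1.06 (adjusted p = 5.58e-07), a large subunit factor with 74.5 to 79.3 CPM in vehicle and 150 to 165 CPM in RSL3-R, UTP25 at 0.88 (adjusted p = 2.87e-06) and DDX10 at 0.59 (adjusted p = 3.52e-04). EMG1 at -0.72 (adjusted p = 2.34e-05), IMP3 at -0.69 (adjusted p = 0.00316) and EIF6, which keeps the large subunit from joining the small one too early, at -0.67 (adjusted p = 7.05e-06) were the lowest. On the opposite strand, other genes share 59.3% of the exon bases of IMP3, 49.5% of those of EMG1 and 24.5% of those of ZNRD1. The largest overlaps are with SNX33, LPCAT3 and ZNRD1ASP, so the unknown strand setting bears on these values. ZNRD1 and RSL24D1 were the only factors of this list past 2-fold, each in 1 comparison. Without erastin-R replicate 1 the counts were 61 lower and 31 higher in erastin-R and 62 lower and 26 higher in RSL3-R, where 30.3%, 29.6%, 29.2% and 27.4% of the genes then tested were called.

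**Figure D5:**
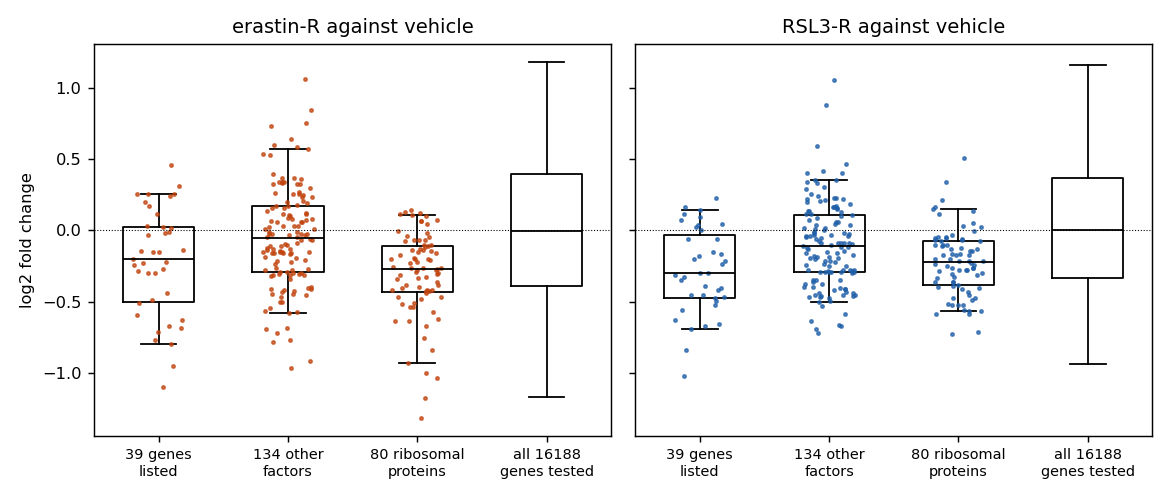
Log2 fold change against vehicle (y axis) in erastin-R (left) and RSL3-R (right) for the 39 genes, 134 other ribosome biogenesis factors, 80 ribosomal protein genes (points with boxes) and all 16188 genes tested (box only); boxes show quartiles and median, whiskers the central 90%. The medians of the 39 genes are -0.20 and -0.30, of the other factors -0.05 and -0.11 and of the ribosomal proteins -0.27 and -0.22, while that of all genes is near 0.

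The genes for the ribosomal proteins, the cargo of this machinery, were also lower. Of 80 cytosolic ribosomal protein genes, 50 were lower and 0 higher in erastin-R by edgeR (48 and 0 by DESeq2, 54 and 1 at an unadjusted p under 0.05), and 40 were lower and 3 higher in RSL3-R, with medians of -0.27 and -0.22. The lower genes made up 62.5% of the list in erastin-R, against 26.8% of all genes, and 40 of 80 in RSL3-R, against 24.9%. Their summed level was 39100 to 41040 CPM in vehicle, 33090 to 36040 CPM in erastin-R and 34570 to 35330 CPM in RSL3-R. Between the resistant groups 18 were higher and 17 lower in RSL3-R (22.5% and 21.25%, against 22.33% and 26.9% of all genes). Many ribosomal protein genes have processed pseudogenes, so their counts depend on how reads with several matches were treated.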

How the data were processed

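Per gene counts for 9 libraries of MDA-MB-231 cells were deposited by the authors without normalization, beside FPKM values the authors made from them. Submitters' processing notes name HISAT2 2.0.5 and featureCounts 1.5.0-p3; the strand setting is not given in the sources used here. All 58735 gene entries have the coordinates and exon lengths of GENCODE 29 (GRCh38). Counts were analysed with edgeR 4.0.16 in R 4.3.3 (filterByExpr, TMM, quasi-likelihood test, 1 model of 9 libraries, Benjamini-Hochberg over 16188 genes); TMM factors were 0.983 to 1.02 and the replicate coefficient of variation 8.56%. FPKM served only for levels between genes. An interval is the estimate ± 1.96 standard errors, and covers counting and replicate error. Unlike the test, it makes no allowance for the small number of libraries, so it is narrower than its label states. For DKC1 in erastin-R it ran from -0.287 to -0.0066 and left out 0. The unadjusted p of the quasi-likelihood test there was 0.0597. A depth of 15405102 to 17273464 counts puts 3 counts at 0.174 to 0.195 CPM.

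The 39 genes, their roles and the other lists were chosen with earlier results of these data known. Every one of the 39 is named; of the other factors, the 3 largest increases and decreases among the called in each comparison with vehicle are. Alternatives were no filter, DESeq2 1.42.0, total-count scaling, quantile normalization with limma 3.58.1, a model of the 2 groups compared, a block for the replicate number, 1 library left out at a time, an unadjusted p and a minimum log2 fold change of 1. On simulated counts for erastin-R against vehicle (16188 genes, 100 changed per size), edgeR recovered 65 genes changed by log2 0.5 and 85 changed by log2 1, and called 7 unchanged genes. The simulation gave every gene the same spread, changed 200 genes evenly up and down and held no outlying library. The real comparison called 54.0% of genes, so these rates may not carry over to it. Promoter windows came from RefSeq (GRCh38.p14); figures from Python 3.11.15 with matplotlib 3.10.9.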

Additional observations from a re-analysis of the deposited data

How the results depend on the processing

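The direction of the median of the 39 genes against vehicle held under all 4 scalings, between -0.22 and -0.17 in erastin-R and between -0.30 and -0.26 in RSL3-R, where quantile normalization with limma gave -0.26. For RSL3-R minus erastin-R that normalization turned the median from -0.08 to 0.0028. Of the called genes, 17 of 23 in erastin-R, 20 of 23 in RSL3-R and 8 of 15 between the resistant groups were called under all 15 settings other than the minimum fold change and the unadjusted p. Of the genes not called, 8 of 16 in erastin-R, 7 of 16 in RSL3-R and 8 of 24 between the groups were called under at least 1 of these settings. Beside losses given above, no filter or quantile normalization lost POLR1B in erastin-R, and the model of the 2 groups lost NOP14, DDX21 and NOP16 there. Total-count scaling and the replicate block also lost NOP16, and quantile normalization lost DKC1 in RSL3-R. Between the groups, POLR1A, POLR1B, POLR1C and NOLC1 were each lost under several methods. With a minimum log2 fold change of 1, the 39 genes had 0 higher and 1 lower in erastin-R, 1 lower in RSL3-R and 0 and 0 between the groups, and the other factors 1 higher and 0 lower, 1 and 0, and 0 and 0. Over all genes tested that minimum left 6.70% higher and 6.66% lower in erastin-R, 6.02% and 4.08% in RSL3-R and 6.86% and 3.48% between the groups. Quantile normalization gave 3 higher in erastin-R, 2 higher in RSL3-R and 5 lower between the groups, where it called 26.44%, 24.25% and 24.9% of all genes. The model of the 2 groups compared gave 3 higher, 3 higher and 6 lower, where it called 25.99%, 28.71% and 22.8% of the genes it tested. In RSL3-R 1 gene was higher with an unadjusted p, with no filter and with total-count scaling. Of the genes tested under each, 27.05%, 11.14% and 24.67% were higher there.

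Leaving out 1 library at a time gave 2 to 5 higher and 15 to 24 lower genes in erastin-R (median -0.24 to -0.15), 0 to 3 and 20 to 27 in RSL3-R (-0.32 to -0.24) and 3 to 9 and 5 to 10 between the groups (-0.12 to -0.02). For the other factors it gave 24 to 31 and 35 to 61, 11 to 26 and 32 to 62, and 17 to 39 and 30 to 48. Over the same fits the shares of all genes called moved too, from 23.1 to 29.6% higher and 23.1 to 30.3% lower in erastin-R, 19.2 to 27.4% and 18.8 to 29.2% in RSL3-R, and 18.5 to 27.1% and 19.7 to 30.0% between the groups. The 2 higher genes in erastin-R came without vehicle replicate 1.

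Same-numbered libraries were no closer than others. The mean correlation of deviations was -0.00495 over 9 pairs and 0.00256 over 18 others, and 4 of 9 libraries were closest to their own number. No pairing by replicate number was seen, but so few pairs cannot exclude one. With the replicate number as a block the 39 genes had 4 higher and 17 lower in erastin-R, 0 and 21 in RSL3-R and 4 and 7 between the groups, with medians of -0.20, -0.30 and -0.08. For the other factors the block gave 27 and 39, 16 and 47, and 23 and 43. Over all genes tested the block called 26.12% higher and 26.0% lower in erastin-R, 22.58% and 23.8% in RSL3-R and 21.58% and 25.45% between the groups. NOP2 had 165 counts over the 9 libraries, and what limits its count was not tested.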
